A study of Mus musculus with 6 samples.

Results

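The aminoacyl-tRNA synthetase genes of mBMSCs, mesenchymal stem cells from mouse bone marrow, were followed through a knockdown of RIOK3, a RIO family protein kinase. They were taken from the count table as the protein-coding genes whose symbol is a letter for the amino acid followed by ars, with an optional 1 or 2, together with Farsa, Farsb and Eprs. The rule found 37 of the 22030 genes, 20 of them for enzymes of the cytosol and 17 for enzymes of mitochondria. It used names alone and no measured value. All 37 genes passed the filter on low counts, so that each was tested.

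Messenger RNA was sequenced in 6 libraries, 3 of RIOK3 knockdown cells, titled siRIOK3-, and 3 of control cells, titled siNC. Both groups are labelled as mBMSCs, which are stromal progenitors of bone, fat and cartilage, with the genotype labels RIOK3 knockdown and WT. The design text speaks of stable lines made with a lentivirus and of osteogenic differentiation, and calls the cells both knockdown and knockout, and the sample titles use the prefix si. The labels give no age, sex or strain of the mice, no culture condition and no time, do not settle which agent was used, and do not state whether a line is 1 clone. Separate cultures behind the libraries are not stated either, and the p-values therefore measure only the spread between these samples, possibly a technical one. In such bulk samples fewer cells of a type and less RNA per cell cannot be told apart.

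Aminoacyl-tRNA synthetases join each amino acid to its tRNA, the step at which the genetic code is read into chemistry. Cytosolic and mitochondrial translation mostly use separate enzymes from separate nuclear genes, but Kars and Gars each encode both forms. In animal cells several cytosolic enzymes sit together in the multisynthetase complex, held by the scaffold proteins of Aimp1, Aimp2 and Eef1e1. Many cytosolic synthetase genes are known targets of ATF4, the transcription factor of the amino acid response.

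The libraries held 28327612 to 30517261 counts in the knockdown and 31089006 to 32569544 counts in control. The targeted gene, Riok3, averaged 33.6 ± 3.12 CPM (TMM-normalised CPM, counts scaled to library size) in the knockdown and 157 ± 31.1 CPM in control (SD, n = 3 each), a log2 fold change of -2.23 (edgeR adjusted p = 0.000127). Control replicate 2 stood apart, whose log2 CPM correlated with the other control libraries at a Spearman's rho of 0.963 and 0.968, while those among knockdown libraries were at least 0.996. Of 13 mesenchymal stromal markers 12 were tested, 5 of them higher and 5 lower, and Thy1 and Lepr, which many such cells carry, had at most 36 and 13 counts in any library. The summed level of 7 leukocyte markers was 46.5 to 51.7 CPM in the knockdown and 27.1 to 43.3 CPM in control, nearly all of it Cd68, while Ptprc, which all leukocytes carry, had at most 3 counts. That of 4 endothelial markers, mostly Kdr, was 8.30 to 8.79 CPM in the knockdown and 3.13 to 8.02 CPM in control, and 3 epithelial markers summed to at most 0.483 CPM in the knockdown and 0.359 CPM in control. The part of these markers in the synthetase values was not tested.

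Synthetase genes went both ways in the knockdown. Of the 37 genes, 12 were lower, 7 were higher and 18 did not pass (quasi-likelihood test of edgeR, p adjusted by Benjamini-Hochberg across all 13067 genes tested, threshold 0.05). Among all tested genes 26.8% were lower and 21.1% higher, 48.0% in all, so the share of synthetase genes that passed was near the background. Leaving out control replicate 2 gave 12 higher and 16 lower synthetase genes, where 35.1% of all genes were higher and 36.5% lower, 71.6% in all. Log2 fold changes, given throughout as knockdown over control, ran from -1.86 for Dars to 0.72 for Wars. Their median was -0.14, against 0.014 for all tested genes, with TMM scaling. It was 0.055 against 0.21 with upper-quartile scaling, and 0.11 against 0.26 with library totals alone, so the sign of this median depends on the scaling while its place below that of all genes did not change under these 3 scalings. The split was 9 higher and 7 lower with upper-quartile scaling, and 10 higher and 8 lower with library totals. No gene that passed with TMM changed its sign under either. The knockdown and control libraries did not overlap in CPM for 26 of the 37 genes, 16 lower and 10 higher, where 62.1% of all tested genes did not overlap.

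**Figure D1:**
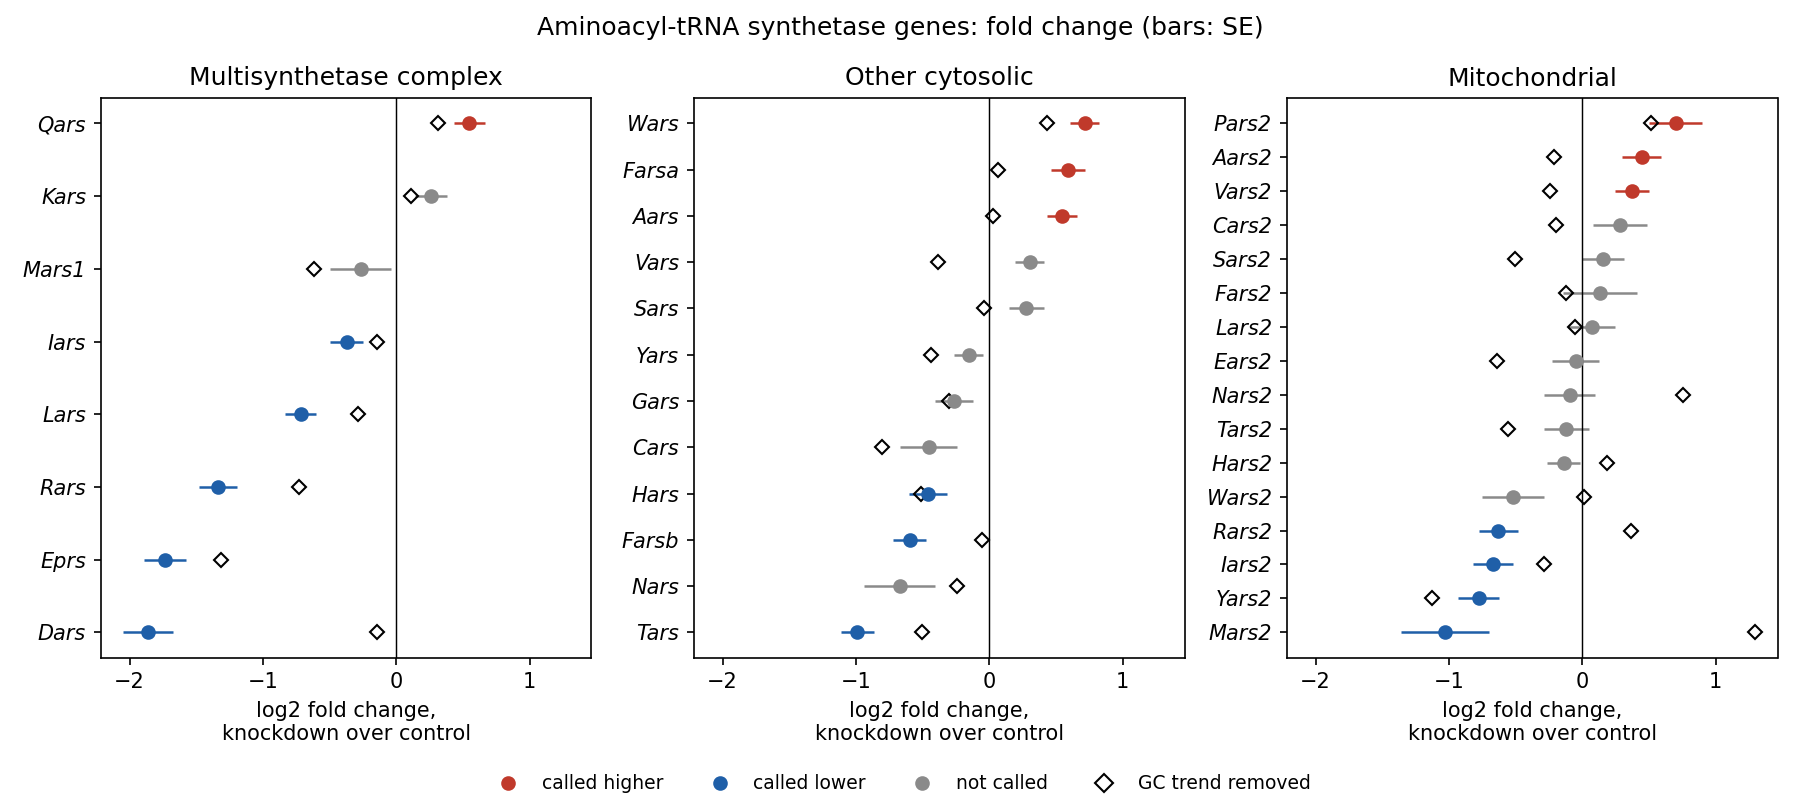
Log2 fold changes (knockdown over control, horizontal axes) of synthetase genes in 3 panels, genes of the multisynthetase complex, other cytosolic genes and mitochondrial genes. Filled points are the edgeR estimates with their SE, coloured by the call at an adjusted p under 0.05, and open diamonds are the estimates with the GC trend of each library removed. In the panel of the complex, Dars, Eprs and Rars lie between -1.86 and -1.34 while Qars lies at 0.55, and the diamond of Dars lies at -0.14.

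The largest falls were in the multisynthetase complex, of whose 8 synthetase genes 5 were lower, 1 was higher and 2 did not pass. The shares among all tested genes were 26.8% lower and 21.1% higher. Eprs encodes the bifunctional enzyme that charges both glutamate and proline, the only such fusion among the genes studied. Eprs (ENSMUSG00000026615.15, chromosome 1) had 235, 242 and 256 CPM in the knockdown libraries, against 910.1, 664 and 864 CPM in the control libraries. Every knockdown library lay below every control library, 3.33-fold on average (log2 fold change -1.73, SE 0.156, edgeR adjusted p = 0.000202). Dars, the aspartyl-tRNA synthetase (ENSMUSG00000026356.16, chromosome 1), had 16.7, 17.1 and 20.5 CPM in the knockdown libraries, against 73.6, 51.4 and 72.4 CPM in the control libraries. The groups were again apart, with control replicate 2 the lowest of its group, and Dars was 3.64-fold lower (log2 fold change -1.86, SE 0.186, edgeR adjusted p = 0.00032).

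Rars, the arginyl enzyme (ENSMUSG00000018848.5, chromosome 11), had 264, 259 and 280.4 CPM in the knockdown libraries, against 642, 785 and 604 CPM in the control libraries. It was 2.53-fold lower (log2 fold change -1.34, SE 0.142, edgeR adjusted p = 0.000392), and here control replicate 2 was the highest library. Lars, the leucyl enzyme (ENSMUSG00000024493.10, chromosome 18), had 225, 223 and 243 CPM in the knockdown libraries, against 373, 396 and 367 CPM in the control libraries. The knockdown libraries were 1.64-fold lower with little spread in either group (log2 fold change -0.72, SE 0.114, edgeR adjusted p = 0.00215). The isoleucyl gene Iars averaged 286 ± 3.29 CPM in the knockdown and 370.3 ± 34.3 CPM in control (log2 fold change -0.37, SE 0.122, edgeR adjusted p = 0.0395), a call that held in only 1 of the 6 fits that leave out a library.

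Qars, the glutaminyl enzyme (ENSMUSG00000032604.17, chromosome 9), went the other way. It had 257, 259 and 272 CPM in the knockdown libraries, against 184, 163 and 191 CPM in the control libraries. The lowest knockdown library was above the highest control library, and the level was 1.46-fold higher (log2 fold change 0.55, SE 0.119, edgeR adjusted p = 0.00804). Kars, the lysyl enzyme of both cytosol and mitochondria (ENSMUSG00000031948.15, chromosome 8), had 617, 633 and 628 CPM in the knockdown libraries, against 489, 572 and 503 CPM in the control libraries. These values do not overlap either, but the difference did not pass (log2 fold change 0.26, SE 0.121, edgeR adjusted p = 0.109). The methionyl gene Mars1 had a log2 fold change of -0.27 (edgeR adjusted p = 0.369). Its control replicate 2, at 172 CPM, was above all other libraries, which lay between 98.4 and 104 CPM. The median of the 8 genes was -0.54, and it was -0.35 with upper-quartile scaling and -0.30 with library totals. Once a trend with transcript GC content was removed from each library, Eprs and Rars were the only genes of the complex still lower, none was higher, and Dars was at -0.14. In that fit 15.2% of all genes were lower and 16.3% higher. The count for the complex rests on control replicate 2. With that library left out as well, 5 genes of the complex were lower and 2 higher, where 27.9% of all genes were lower and 33.7% higher. Among the lower ones were Lars at -0.16 (edgeR adjusted p = 0.0122), Iars at -0.15 (edgeR adjusted p = 0.0135) and Mars1 at -0.28 (edgeR adjusted p = 0.000123). The higher ones were Qars at 0.27 (edgeR adjusted p = 0.000146) and Kars at 0.23 (edgeR adjusted p = 0.000409), while Dars did not pass, at -0.17 (edgeR adjusted p = 0.076).

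The highest and the lowest gene of the complex were further apart in level in the knockdown, by deposited FPKM, which scales counts by gene length. The lowest was Dars in every library, and the highest was Kars in the knockdown and Rars in control, so the ratio follows these genes alone. The highest of the 8 had 36.1, 36.2 and 29.9 times the FPKM of the lowest in knockdown replicates 1, 2 and 3, against 11.8, 20.6 and 11.3 times in control replicates 1, 2 and 3. The ratio of Qars to Dars FPKM was 10.2, 10.1 and 8.77 in the knockdown, against 1.66, 2.10 and 1.75 in control. That of Kars to Eprs was 10.7, 10.6 and 9.97 in the knockdown, against 2.18, 3.49 and 2.36 in control. Of the scaffold genes, Eef1e1 averaged 21.5 ± 1.88 CPM in the knockdown and 48.2 ± 7.32 CPM in control (log2 fold change -1.17, SE 0.156, edgeR adjusted p = 0.00108). Aimp2 had a log2 fold change of 0.46 (edgeR adjusted p = 0.027), and that of Aimp1, -0.33, did not pass (edgeR adjusted p = 0.174). None of the 3 passed with the GC trend removed, Eef1e1 at -0.16 (edgeR adjusted p = 0.346) and Aimp2 at 0.10 (edgeR adjusted p = 0.578). With adenine content and length taken out besides, Eef1e1 was lower at -0.49 (edgeR adjusted p = 0.0188) and Aimp1 higher at 0.49 (edgeR adjusted p = 0.0188).

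**Figure D2:**
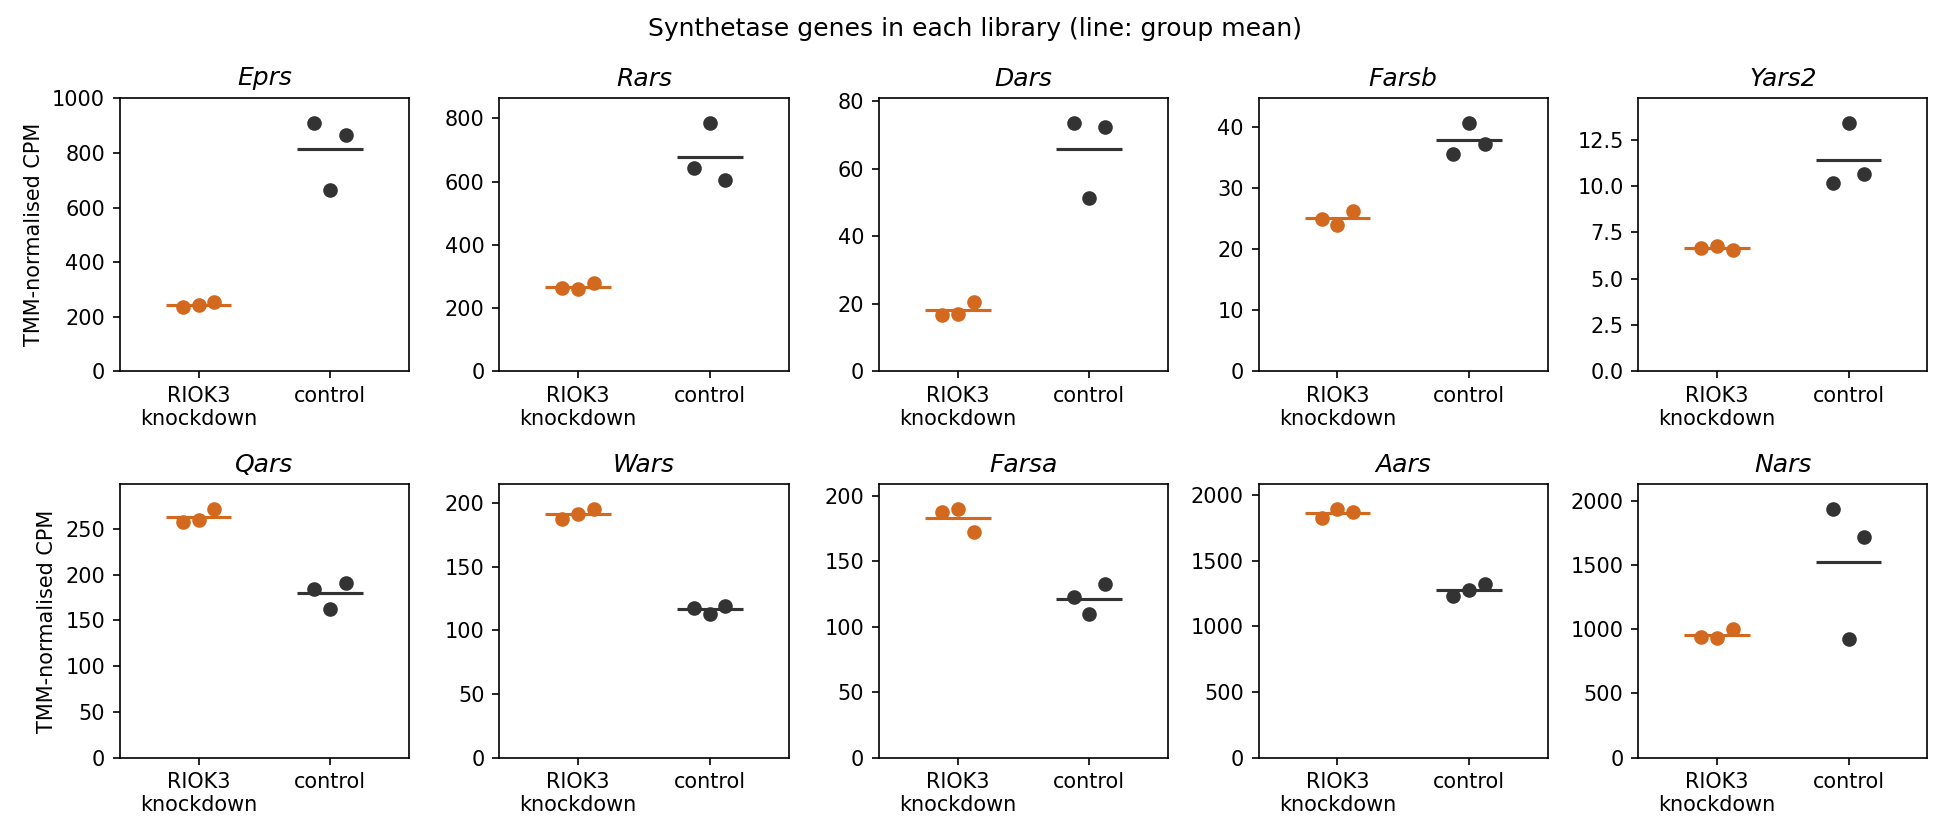
TMM-normalised CPM (vertical axes, from 0) of 10 synthetase genes in each library, with the RIOK3 knockdown left of control and a line at each group's mean (n = 3 each). The groups are apart for the first 9 genes, and for Nars control replicate 2 (921 CPM) lies with the knockdown libraries.

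Of the 12 other cytosolic genes, 3 were higher, 3 were lower and 6 did not pass, where 21.1% of all tested genes were higher and 26.8% lower. Wars, the tryptophanyl enzyme, which interferon induces in human cells (ENSMUSG00000021266.17, chromosome 12), was the largest rise of all synthetase genes. It had 188, 192 and 195 CPM in the knockdown libraries, against 118, 113 and 119 CPM in the control libraries. It was 1.64-fold higher with both groups tight (log2 fold change 0.72, SE 0.108, edgeR adjusted p = 0.00175). Aars, the alanyl enzyme (ENSMUSG00000031960.15, chromosome 8), had 1826, 1892 and 1874 CPM in the knockdown libraries, against 1230.3, 1275 and 1325 CPM in the control libraries. All knockdown libraries lay above all control libraries (log2 fold change 0.55, SE 0.114, edgeR adjusted p = 0.00693), 1.46-fold on average.

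Tars, the threonyl enzyme (ENSMUSG00000022241.7, chromosome 15), had 563, 554 and 603 CPM in the knockdown libraries, against 1137, 1234 and 1042 CPM in the control libraries. Each knockdown library was below every control library, 1.98-fold on average (log2 fold change -0.99, SE 0.126, edgeR adjusted p = 0.000822). Hars, the histidyl enzyme, averaged 72.8 ± 2.62 CPM in the knockdown and 100.03 ± 14.9 CPM in control and was lower (log2 fold change -0.46, SE 0.142, edgeR adjusted p = 0.0324). Hars and Hars2 start next to each other on opposite strands, and with a strand setting not given in the sources used here, reads of the pair may be shared. Gars, the glycyl enzyme of both cytosol and mitochondria (ENSMUSG00000029777.11, chromosome 6), had 622, 619.8 and 620.4 CPM in the knockdown libraries, against 674, 869 and 691 CPM in the control libraries. The knockdown libraries were nearly equal and below all control libraries, but the difference did not pass (log2 fold change -0.26, SE 0.14, edgeR adjusted p = 0.158).

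The phenylalanyl enzyme of the cytosol is built from an alpha chain and a beta chain, and their genes went opposite ways. Farsa, the alpha chain (ENSMUSG00000003808.19, chromosome 8), had 188, 189.8 and 172 CPM in the knockdown libraries, against 122, 109 and 133 CPM in the control libraries. It was 1.51-fold higher (log2 fold change 0.59, SE 0.126, edgeR adjusted p = 0.00739). Farsb, the beta chain (ENSMUSG00000026245.17, chromosome 1), had 24.96, 24.0 and 26.2 CPM in the knockdown libraries, against 35.6, 40.7 and 37.3 CPM in the control libraries, values given per library because it is the partner of Farsa. It was 1.51-fold lower with no overlap (log2 fold change -0.60, SE 0.124, edgeR adjusted p = 0.00667), a call lost without knockdown replicate 2. The ratio of Farsa to Farsb FPKM was 4.35, 4.56 and 3.79 in knockdown replicates 1, 2 and 3, against 1.98, 1.55 and 2.05 in control replicates 1, 2 and 3.

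Control replicate 2 decided some of the remaining cytosolic genes. Nars, the asparaginyl enzyme, had 937, 929 and 1005 CPM in the knockdown libraries, against 1936, 921 and 1717 CPM in the control libraries. Control replicate 2 lay below the knockdown libraries, the other control libraries far above them, and the difference did not pass (log2 fold change -0.67, SE 0.265, edgeR adjusted p = 0.0726). Without control replicate 2 Nars was called lower, at -0.93. Cars, the cysteinyl enzyme, averaged 601 ± 8.78 CPM in the knockdown and 823 ± 257 CPM in control, with control replicate 2 at 1120.0 CPM (log2 fold change -0.46, SE 0.216, edgeR adjusted p = 0.122). Without that library Cars was called lower at -0.17. The seryl gene Sars, the valyl gene Vars and the tyrosyl gene Yars did not pass, at 0.28 (edgeR adjusted p = 0.12), 0.30 (edgeR adjusted p = 0.0576) and -0.15 (edgeR adjusted p = 0.284). Without control replicate 2 Sars was called higher at 0.25 (edgeR adjusted p = 0.00656) and Vars at 0.27 (edgeR adjusted p = 0.000816), as was Kars at 0.34 (edgeR adjusted p = 8.01e-05), and Gars was called lower at -0.14 (edgeR adjusted p = 0.045), while Yars did not pass. The median of the 12 genes was -0.21 with TMM scaling, -0.026 with upper-quartile scaling and 0.042 with library totals, so its sign depends on the scaling. Once the GC trend was removed, Wars was higher, Cars, Vars and Yars were lower, and Aars, Farsa, Farsb, Tars and Hars did not pass. The fold change of Hars was no smaller in that fit, at -0.51 (edgeR adjusted p = 0.0563), and those of Aars, Farsa and Farsb were 0.030, 0.065 and -0.054. With control replicate 2 left out as well, Hars and Tars were called lower again, at -0.33 (edgeR adjusted p = 6.02e-05) and -0.34 (edgeR adjusted p = 9.88e-06).

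Of the 17 mitochondrial genes, 4 were lower, 3 were higher and 10 did not pass, where 26.8% of all tested genes were lower and 21.1% higher. Yars2, the mitochondrial tyrosyl enzyme (ENSMUSG00000022792.17, chromosome 16), had 6.65, 6.76 and 6.54 CPM in the knockdown libraries, against 10.1, 13.4 and 10.6 CPM in the control libraries. Every knockdown library was below every control library and the level 1.71-fold lower (log2 fold change -0.78, SE 0.156, edgeR adjusted p = 0.00585). Iars2, the isoleucyl enzyme, averaged 33.0 ± 2.30 CPM in the knockdown and 52.6 ± 8.06 CPM in control (log2 fold change -0.67, SE 0.152, edgeR adjusted p = 0.00972). Rars2, the arginyl enzyme, averaged 13.5 ± 1.496 CPM in the knockdown and 20.9 ± 1.93 CPM in control (log2 fold change -0.63, SE 0.146, edgeR adjusted p = 0.0106). The calls of Iars2 and Rars2 each held in 4 of the 6 fits without a library.

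Vars2, the valyl enzyme (ENSMUSG00000038838.16, chromosome 17), had 27.1, 26.3 and 24.0 CPM in the knockdown libraries, against 21.2, 19.4 and 19.1 CPM in the control libraries. It was 1.30-fold higher (log2 fold change 0.37, SE 0.126, edgeR adjusted p = 0.043). Aars2, the alanyl enzyme (ENSMUSG00000023938.9, chromosome 17), had 9.92, 9.85 and 8.63 CPM in the knockdown libraries, against 6.24, 7.41 and 7.18 CPM in the control libraries. It was 1.36-fold higher (log2 fold change 0.45, SE 0.146, edgeR adjusted p = 0.0382). For both genes the groups did not overlap, but each call held in only 1 of the 6 fits without a library, the one without control replicate 2. The same was true of the genes with the fewest counts. Pars2, the prolyl enzyme, had 150, 145 and 126 counts in knockdown replicates 1, 2 and 3 and 77, 90 and 66 counts in control replicates 1, 2 and 3, with a log2 fold change of 0.70 (edgeR adjusted p = 0.0226). Mars2, the methionyl enzyme, had 39, 41 and 39 counts in the knockdown and 87, 39 and 96 counts in control, -1.03 (edgeR adjusted p = 0.0376).

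Lars2, the mitochondrial leucyl enzyme (ENSMUSG00000035202.9, chromosome 9), had 32.9, 21.7 and 24.7 CPM in the knockdown libraries, against 25.4, 24.7 and 25.3 CPM in the control libraries. The knockdown libraries lay on both sides of the control libraries (log2 fold change 0.072, SE 0.176, edgeR adjusted p = 0.759). The other 9 mitochondrial genes that did not pass had log2 fold changes from -0.52 for Wars2 to 0.28 for Cars2. Fars2, the phenylalanyl enzyme, spread widely in control, with 14.5, 31.5 and 19.0 CPM in replicates 1, 2 and 3, and the 24.0, 22.3 and 24.9 CPM of the knockdown lay inside that range. The median of the 17 genes was -0.050 with TMM scaling, 0.12 with upper-quartile scaling and 0.20 with library totals, so that its sign too depends on the scaling. Once the GC trend was removed, Yars2 was the only one of the 7 called genes that kept its direction and call, and with control replicate 2 left out as well Pars2 did so too, at 0.71 (edgeR adjusted p = 0.00314). In that last fit Mars2, Rars2 and Vars2 were called the other way.

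Each mitochondrial gene was set beside the cytosolic gene or genes for the same amino acid, in 18 pairs. In 3 pairs both genes were called in the same direction, Aars and Aars2 higher, Iars and Iars2 lower, and Rars and Rars2 lower. In 1 pair the calls were opposite, Eprs lower and Pars2 higher. In 11 pairs only 1 gene was called and in 3 neither was. Of all tested genes 48.0% were called. With the GC trend removed Aars, Aars2, Iars, Iars2, Rars2 and Pars2 did not pass, so none of the pairs with 2 calls kept both. Aars2 and Rars2 were then at -0.21 and 0.36. With control replicate 2 left out as well, Eprs and Pars2 were again called in opposite directions. So were Rars, lower, and Rars2, higher at 0.46, although both had been lower without the offset. Also opposite in that fit were Hars and Hars2, Mars1 and Mars2, and Nars and Nars2, each with the cytosolic gene lower. Both genes were lower there for Eprs and Ears2, Tars and Tars2, Vars and Vars2, and Yars and Yars2. For tryptophan the log2 fold change was 0.72 for Wars and -0.52 for Wars2, which did not pass, and for tyrosine -0.15 for Yars, which did not pass, and -0.78 for Yars2. The differences within these pairs were not tested. By the structural class of the catalytic domain, 3 of 18 class I genes were higher and 7 lower, and 4 of 18 class II genes were higher and 4 lower, leaving aside Eprs, which holds a domain of each class. Of all tested genes 21.1% were higher and 26.8% lower. With the GC trend removed, 2 class I genes were higher and 6 lower, and 2 class II genes were higher and 2 lower. There 16.3% of all genes were higher and 15.2% lower. The difference between the classes was not tested.

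The order of levels was much the same in both groups. By deposited FPKM, every cytosolic gene stood above every mitochondrial one in control, with Farsb (12.7 FPKM) next to Rars2 (6.63 FPKM). In the knockdown Dars, at 4.43 ± 0.547 FPKM in the knockdown and 13.3 ± 2.70 FPKM in control, stood behind Tars2, Rars2 and Vars2. Sars was the highest gene, at 632 ± 36.5 FPKM in the knockdown and 430.5 ± 38.3 FPKM in control (SD, n = 3 each). Nars followed with 235 ± 11.5 FPKM in the knockdown and 309.6 ± 111 FPKM in control, and the spread of Nars in control overlaps the 210.3 ± 27.5 FPKM of Gars there. Eprs was 18th in the knockdown and 11th in control, at 14.4 ± 0.715 FPKM in the knockdown and 39.6 ± 6.82 FPKM in control. Rars was 8th in the knockdown and 4th in control, and Aars was 3rd in the knockdown and 6th in control. Mars2 was the lowest in both, at 0.117 ± 0.00577 FPKM in the knockdown and 0.200 ± 0.0794 FPKM in control.

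The synthetase genes together held 1.16, 1.16 and 1.22% of all counts in knockdown replicates 1, 2 and 3, against 1.15, 1.07 and 1.12% in control replicates 1, 2 and 3. The shares of the knockdown libraries lay just above those of the control libraries. Sars alone held 28.6, 28.0 and 29.7% of the summed synthetase FPKM in the knockdown, against 22.3, 19.9 and 20.0% in control. The direction of the mean cytosolic and of the mean mitochondrial total depends on the scale. The cytosolic FPKM sum was 2108, 2119.7 and 2225 in the knockdown and 2087, 1983 and 2023 in control. The TMM-normalised cytosolic sum was 10430.4, 10434 and 10866 CPM in the knockdown and 12342, 11696 and 11635 CPM in control. The mitochondrial FPKM sum was 48.0, 46.6 and 47.1 in the knockdown and 39.9, 47.0 and 41.9 in control. Its TMM-normalised counterpart was 258, 243 and 243 CPM in the knockdown and 252, 304 and 258 CPM in control. The mitochondrial groups overlap on both scales.

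**Figure D3:**
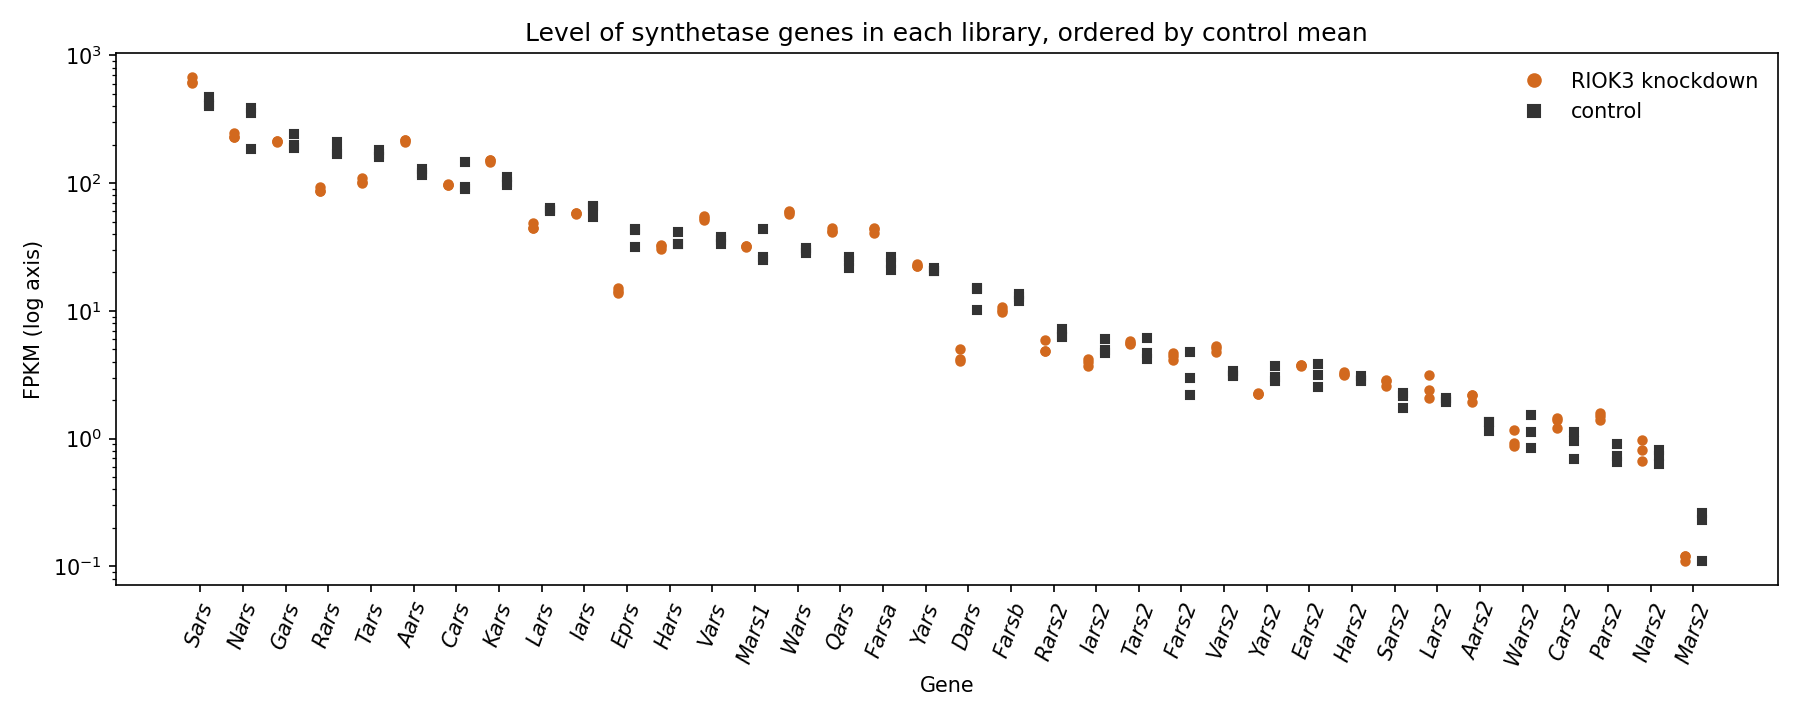
Deposited FPKM (log axis) of synthetase genes in each library, ordered by the control mean, with knockdown libraries as orange circles left of control libraries as dark squares. Sars is the highest and Mars2 the lowest gene in both groups, and the knockdown points of Eprs and Dars lie below their control points.

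Fold changes of synthetase genes moved with the GC content of their transcripts, as those of all genes did. Across the 37 genes Pearson's r was 0.68 and Spearman's rho 0.67, and across 13043 tested genes rho was 0.70, a description over genes that share libraries and are not replicates. Of 22 synthetase genes with at least 50% GC, 7 were higher and 2 lower, with a median log2 fold change of 0.21. Of 15 below 50% GC, none was higher and 10 were lower, with a median of -0.67. All tested genes were not counted on either side of 50% GC. The split therefore cannot show whether synthetase genes differ from other genes of like GC content. The slope of log2 CPM against GC content, taken after centring each gene over the libraries, was 0.662, 0.657 and 0.564 per 10 points of GC in knockdown replicates 1, 2 and 3, against -0.79, -0.45 and -0.64 in control. Centring gives the groups opposite signs by construction. Whether this trend comes from the cells or from the libraries was not tested.

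**Figure D4:**
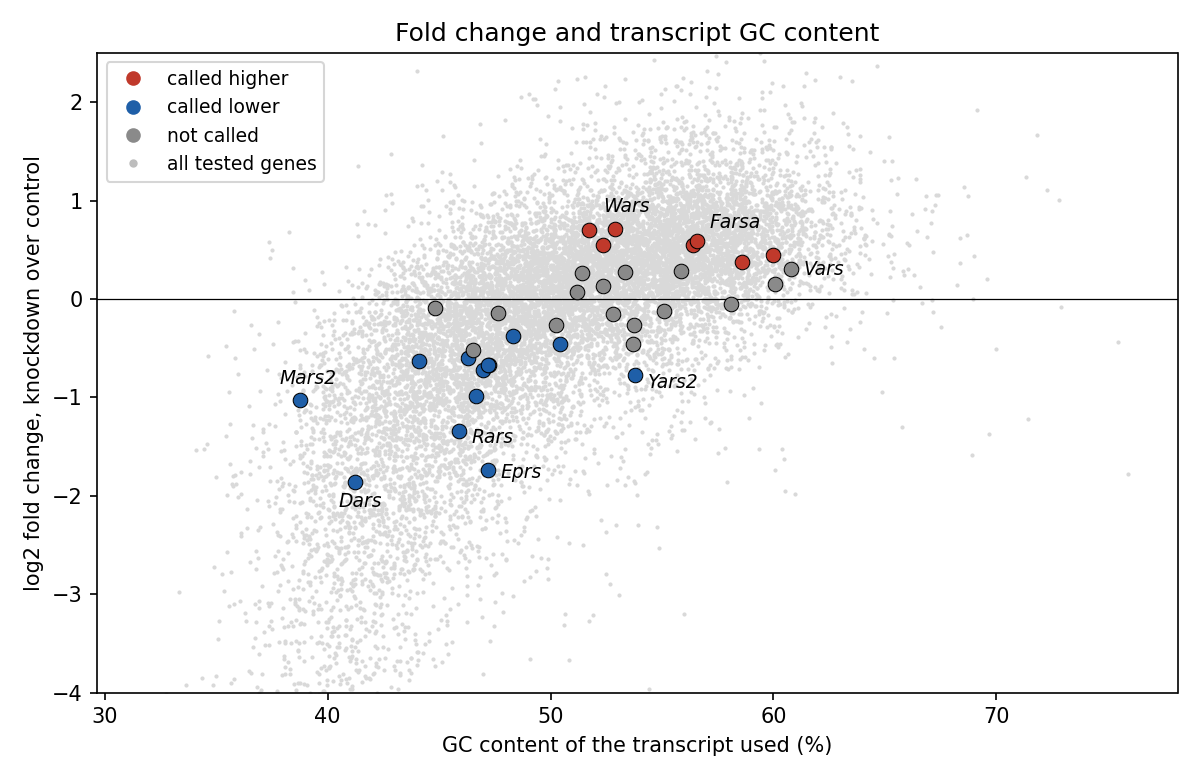
Log2 fold change (knockdown over control, vertical axis) against the GC content of the transcript used (%, horizontal axis), with synthetase genes as large points coloured by their call and all tested genes as small pale points. Genes beyond the vertical limits are not drawn. Synthetase genes below 50% GC were called lower or not called, and Eprs, at 47.2% GC, and Yars2, at 53.8% GC, lie below the synthetase genes nearest to them in GC content.

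With the GC trend of each library removed as an offset in the fit, 4 synthetase genes were higher and 9 lower, where 16.3% of all genes were higher and 15.2% lower, 31.6% in all. Of the 19 genes called without that step, 4 kept their call and direction, namely Eprs, Rars, Yars2 and Wars. That number rests on control replicate 2. With the GC trend removed and without that library, a setting added after the data were seen, 10 of the 19 kept their call and direction, these 4 together with Hars, Iars, Lars, Pars2, Qars and Tars. Another 3 of the 19, Mars2, Rars2 and Vars2, were called the other way there, and 6 did not pass. In that fit 10 synthetase genes were higher and 17 lower, where 33.7% of all genes were higher and 27.9% lower, 61.5% in all. With all libraries, Eprs was at -1.32 (edgeR adjusted p = 0.000601), Yars2 at -1.13 (edgeR adjusted p = 0.00257), Rars at -0.73 (edgeR adjusted p = 0.0297) and Wars at 0.43 (edgeR adjusted p = 0.02). Dars, of 41.2% GC, was at -0.14 (edgeR adjusted p = 0.417), and Farsa and Farsb, of 56.6 and 46.3% GC, were at 0.065 and -0.054, none of them past the threshold. Aars was at 0.030 and Tars at -0.50, also not past it. Mars2 was called the other way, at 1.30 (edgeR adjusted p = 0.0108), on a transcript of 11294 nt and 38.8% GC that need not be the one expressed here. The ratio of Farsa to Farsb and the spread within the multisynthetase complex given above are not corrected for this trend.

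A further fit, chosen after the data were seen, took out adenine content and transcript length besides GC content, and 34.4% of all genes were called in it, against 3 higher and 8 lower synthetase genes. Eprs was then at -0.56 (edgeR adjusted p = 0.012), Yars2 at -1.05 (edgeR adjusted p = 0.00068) and Wars at 0.61 (edgeR adjusted p = 0.00359), all past the threshold in their first direction. Rars, at -0.29 (edgeR adjusted p = 0.127), was not, and Mars2, at 1.11 (edgeR adjusted p = 0.00801), and Vars2, at -0.40 (edgeR adjusted p = 0.0476), were called the other way. Over all 21 alternative settings, Eprs was the only called synthetase gene that kept its call in each, with log2 fold changes from -1.86 to -0.56. Wars and Yars2 kept theirs in 20 settings and Rars in 19. Eprs and Yars2 kept theirs in all 5 settings with a composition offset. Of the 19 called genes, 10 kept their call in all 6 fits that leave out a library.

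The genes around the synthetases were counted in lists, to be read against the shares of all tested genes, 21.1% higher and 26.8% lower, and, with the GC trend removed, 16.3% higher and 15.2% lower. Without control replicate 2 those shares were 35.1% higher and 36.5% lower. Of 28 tested genes of tRNA maturation and export, 8 were lower and 3 higher, with a median log2 fold change of -0.24. The lower share is near that of all genes, and the share called either way is below the 48.0% of all genes. The list had 11 lower and 8 higher genes without control replicate 2. Ssb, the La protein that binds the ends of new tRNAs, averaged 116 ± 4.08 CPM in the knockdown and 1623 ± 208 CPM in control (log2 fold change -3.81, SE 0.154, edgeR adjusted p = 1.86e-05). Trmt10c, a subunit of mitochondrial ribonuclease P, averaged 5.64 ± 1.08 CPM in the knockdown and 75.3 ± 9.70 CPM in control (log2 fold change -3.74, SE 0.198, edgeR adjusted p = 3.01e-05). Trnt1, which adds the CCA end to which amino acids are joined, averaged 15.3 ± 0.989 CPM in the knockdown and 121 ± 24.5 CPM in control (log2 fold change -2.98, SE 0.186, edgeR adjusted p = 4.89e-05). With the GC trend removed Ssb was at -1.39 (edgeR adjusted p = 0.00432), Trmt10c at -2.28 (edgeR adjusted p = 0.000265) and Trnt1 at -1.05 (edgeR adjusted p = 0.000933), all still lower, and the list had 7 lower and 3 higher. With control replicate 2 left out of that fit, the list had 10 lower and 12 higher, with a median of 0.080. There 27.9% of all genes were lower and 33.7% higher.

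Of 53 tested genes of tRNA modification, 12 were lower and 5 higher, with a median of -0.030. These counts were 15 lower and 21 higher, with a median of 0.091, without control replicate 2. Trmt13, a tRNA ribose methyltransferase, averaged 12.99 ± 0.287 CPM in the knockdown and 91.1 ± 6.61 CPM in control (log2 fold change -2.81, SE 0.128, edgeR adjusted p = 2.35e-05). Alkbh8, which modifies the wobble uridine, averaged 1.87 ± 0.348 CPM in the knockdown and 20.2 ± 6.52 CPM in control (log2 fold change -3.43, SE 0.294, edgeR adjusted p = 0.000172). With the GC trend removed, 8 were lower and 5 higher, Trmt13 at -2.45 (edgeR adjusted p = 0.000172) and Alkbh8 at -1.43 (edgeR adjusted p = 0.0029). Pus3 and Trmt11, whose p lay between theirs, were at -2.15 and -2.26 without an offset. With the GC trend removed they were at -0.61 (edgeR adjusted p = 0.019) and -0.50 (edgeR adjusted p = 0.187). With adenine content and length taken out besides, Pus3 was at -0.077 (edgeR adjusted p = 0.621) and Trmt11 at -0.74 (edgeR adjusted p = 0.0203). The GC-corrected fit without control replicate 2 had 14 lower and 15 higher genes of this list. Mitochondria have no glutaminyl synthetase of their own and amidate glutamyl-tRNA instead. Of 9 tested genes of that route and of formyl-methionyl initiation, 3 were lower and none higher, with a median of -0.23. They were Mtif2, the mitochondrial initiation factor, at -1.79, Gatc, an amidotransferase subunit, at -0.70, and Pdf, the peptide deformylase, at -0.66. All 3 were also lower with the GC trend removed, at -0.85, -0.61 and -1.14, where 4 of the 9 were lower and 1 higher. In the fit that also took out adenine content and length, Mtif2 did not pass, at -0.21 (edgeR adjusted p = 0.178). Gatc, at -0.49 (edgeR adjusted p = 0.0286), and Pdf, at -1.07 (edgeR adjusted p = 0.00419), were still lower there. Without control replicate 2 and without an offset, 4 of the 9 were lower and 1 higher, with a median of -0.040.

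Of 31 tested genes of the amino acid response through GCN2 and ATF4, 13 were higher and 2 lower, with a median log2 fold change of 0.28, where 21.1% of all genes were higher and 26.8% lower. Leaving out control replicate 2 gave 18 higher and 4 lower. With all libraries the 2 lower genes were Impact, at -1.29, and Cth, at -0.75. Neither was lower with the GC trend removed, at 0.24 and 0.17. Among the 16 that did not pass were Atf4, at 0.11 (edgeR adjusted p = 0.571), Asns, at -0.040 (edgeR adjusted p = 0.821), and Ddit3, at 0.024 (edgeR adjusted p = 0.952). Atf4 and Ddit3 were each called higher in 1 of the 6 fits that leave out a library. Sesn2, a stress-induced regulator of mTORC1, averaged 38.7 ± 2.11 CPM in the knockdown and 13.7 ± 2.13 CPM in control (log2 fold change 1.495, SE 0.154, edgeR adjusted p = 0.00034). Pycr1, an enzyme of proline synthesis, averaged 19.5 ± 0.879 CPM in the knockdown and 9.62 ± 0.581 CPM in control (log2 fold change 1.02, SE 0.127, edgeR adjusted p = 0.000764). Ppp1r15a, the stress-induced partner of the eIF2alpha phosphatase, averaged 2862 ± 80.4 CPM in the knockdown and 1803 ± 57.9 CPM in control (log2 fold change 0.67, SE 0.116, edgeR adjusted p = 0.00317). These genes are GC-rich, with a median of 53.7% GC, and with the GC trend removed 4 were higher and 3 lower, where 16.3% of all genes were higher and 15.2% lower. With control replicate 2 left out of that fit, 17 were higher and 6 lower, where 33.7% of all genes were higher and 27.9% lower. With all libraries and the GC trend removed, Sesn2 and Pycr1 were at 0.88 and 0.67, both past the threshold, and Ppp1r15a at 0.19, not past it.

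Of 19 tested amino acid transporter genes, 6 were higher and 3 lower, with a median of 0.15. The fit without control replicate 2 had 7 higher and 7 lower, with a median of -0.011. Slc7a11, the cystine and glutamate antiporter, averaged 23.7 ± 0.834 CPM in the knockdown and 107 ± 4.99 CPM in control (log2 fold change -2.17, SE 0.12, edgeR adjusted p = 3.04e-05). Slc7a5, a transporter of large neutral amino acids, had a log2 fold change of 0.86, and Slc1a4, a transporter of small neutral ones, of 1.02, each past the threshold. In the GC-corrected fit 3 were higher and none lower, Slc1a4 at 0.74 (edgeR adjusted p = 0.0103) past the threshold, and Slc7a11, at -0.34 (edgeR adjusted p = 0.0833), and Slc7a5, at 0.35 (edgeR adjusted p = 0.0564), not past it. In the fit that also took out adenine content and length, 2 were higher and 4 lower, among them Slc7a11 at -0.77 (edgeR adjusted p = 0.007). A last list held further genes related to synthetases or tRNA that the naming rule leaves out, not all of them synthetase homologues. Of its 5 tested genes 1 was higher, the D-aminoacyl-tRNA deacylase gene Dtd1, at 0.43 (edgeR adjusted p = 0.0212). Dtd1 did not pass with the GC trend removed, at 0.29 (edgeR adjusted p = 0.121), and there the 1 gene called was its homologue Dtd2, higher at 0.75 (edgeR adjusted p = 0.00972).

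Promoters were read for the synthetase genes because ATF4 is known to act on several of them. The motif TGATGNAA, or TTNCATCA on the other strand, is the letter pattern of the element that ATF4 binds together with C/EBP proteins. RefSeq promoters (build GRCm38.p6) from 250 bases before the start to 50 after it were matched for 27 of the 37 genes. The motif was in 5 of the 27 (18.5%), those of Aars, Gars, Iars, Tars and Yars, and in 1304 of all 32851 promoters (3.97%). The first share counts genes and the second counts promoters, of which a gene can have several, so they are not of the same unit. In Iars and Yars the match begins 7 and 3 bases after the start. The motif was in 5 of 13 cytosolic and none of 14 mitochondrial genes. Of promoters of synthetase genes called higher it was in 1 of 5, of those called lower in 2 of 9, and of those not called in 2 of 13. The 250 bases before the start of a gene called higher (Aars, chr8:111033592-111033841, plus strand), one called lower (Tars, chr15:11399659-11399908, minus strand) and one not called (Gars, chr6:55037751-55038000, plus strand) are shown 5′ to 3′, with the motif in capitals.
Aars: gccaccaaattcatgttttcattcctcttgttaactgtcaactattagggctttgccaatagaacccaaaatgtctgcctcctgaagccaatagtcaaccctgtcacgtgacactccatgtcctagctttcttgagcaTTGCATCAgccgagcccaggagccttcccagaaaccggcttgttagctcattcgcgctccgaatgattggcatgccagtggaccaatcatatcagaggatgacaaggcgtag
Tars: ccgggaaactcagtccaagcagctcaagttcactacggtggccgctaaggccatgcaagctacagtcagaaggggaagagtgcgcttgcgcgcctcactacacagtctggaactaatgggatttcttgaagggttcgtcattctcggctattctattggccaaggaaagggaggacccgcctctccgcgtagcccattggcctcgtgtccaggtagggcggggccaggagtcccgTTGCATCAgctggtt
Gars: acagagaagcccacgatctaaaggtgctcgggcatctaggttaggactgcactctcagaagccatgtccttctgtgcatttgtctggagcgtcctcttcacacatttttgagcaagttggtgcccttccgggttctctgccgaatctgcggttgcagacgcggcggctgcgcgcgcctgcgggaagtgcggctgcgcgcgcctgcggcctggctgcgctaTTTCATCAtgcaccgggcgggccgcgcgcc
In all 3 the motif is read on the minus strand relative to the gene, and it begins 112 bases before the start in Aars, 15 in Tars and 30 in Gars. Aars holds a further match in the 50 bases after its start. The presence of these letters thus went with a log2 fold change of 0.55, -0.99 and -0.26 in the same knockdown, none of which passed with the GC trend removed. With control replicate 2 left out of that fit, Tars and Gars were lower, at -0.34 and -0.11. A match describes the sequence and is not evidence of binding, and an absent match says only that these letters are not in the window read.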

How the data were processed

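RNA of 6 libraries was prepared from 2 μg of total RNA each with a stranded mRNA kit, enriched for products of 200 to 500 bp and sequenced on a NovaSeq instrument as paired reads of 150 bases, per the labels' protocols. HISAT2, MultiQC and GRCm39 are named without version or role, per the submitters' processing notes. The counting tool, its strand setting and the annotation are items not given in the sources used here. Per gene, the authors deposited raw counts for 22030 genes, and FPKM, which scales counts by gene length and library total, for 21879 genes. FPKM was used for levels between genes and for alternatives.

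Counts of genes kept by filterByExpr (13067 genes, 99.9% of counts) entered edgeR 4.0.16 (R 4.3.3), with TMM scaling and the quasi-likelihood test (robust), two-sided, without covariates. Benjamini-Hochberg adjustment ran across every tested gene. A gene was called below an adjusted p of 0.05, whatever its fold change. Values are TMM-normalised CPM with their SD over 3 libraries. The SE is the size of the log2 fold change over the root of its F value. The biological coefficient of variation was 0.213. GC content and length came from a single GENCODE M21 (GRCm38) transcript per gene, that with the longest coding part, for 13043 genes (99.8%). For composition offsets, each library's log2 CPM (prior count 2) relative to the mean of libraries was fitted by loess (span 0.3, degree 1) on these properties and entered as an offset.

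Alternatives were DESeq2 1.42.0, other scalings and filters, limma 3.58.1 on log2(FPKM + 1) and log2(FPKM + 0.1), the replicate number as a block, each library left out and composition offsets. The fit was tested on simulated data. The members, lists and tests were chosen with earlier results of these data known. Values per library are given for the 6 called genes that rose most and the 6 that fell most, with at least 5 CPM in the higher group, and for Eprs, Kars, Gars, Qars and Lars2. Farsb, Nars, Fars2, Ears2, the counts of Pars2 and Mars2 and, by single libraries, Mars1 and Cars were added after their values were seen. Of each list up to 4 genes of smallest p could be named. Impact, Cth, Atf4, Asns and Ddit3 were added after their values were seen. Protein sequences were not used here, and 1 gene that is in the counts is not reported by name here.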

Additional observations from a re-analysis of the deposited data

How the results depend on the processing

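Of the 19 called synthetase genes, all kept their call with DESeq2 and with RLE factors, which added 2 and 0 genes. The counts of higher and lower synthetase genes, 7 and 12, were 4 and 9 with the GC offset, 3 and 8 with the GC, adenine and length offset, 9 and 7 with upper-quartile factors, 12 and 7 with limma on log2(FPKM + 1), 11 and 7 with log2(FPKM + 0.1), and 10 and 5 with log2(FPKM + 1) without a filter. Leaving out 1 library gave 4 to 12 higher and 6 to 16 lower synthetase genes, and 1647 to 4701 higher and 2693 to 4891 lower genes among all. Without control replicate 2 it was 12 and 16 synthetase genes and 4701 and 4891 of all. It was 4 and 6 synthetase genes without knockdown replicate 2, and 4 higher without each of the other libraries. Over all genes, 4280 were higher with library totals alone and 4500 with the GC offset and without control replicate 2, a setting that gave 10 higher and 17 lower synthetase genes. Lower genes over all numbered 1988 with the GC offset, 2075 with the GC, adenine and length offset, 1976 with log2(FPKM + 1) and 1974 with log2(FPKM + 0.1). The labels do not state whether same-numbered libraries were paired. The deviations of same-numbered libraries correlated at -0.076, 0.044 and 0.052, and those of other combinations at -0.107 to 0.120. Such small values, from deviations within groups of 3 libraries, cannot decide whether the libraries were paired. With the replicate block 5 synthetase genes were higher and 10 lower, without Aars2, Hars, Iars and Vars2. With the replicate block and GC offset together 3 were higher and 3 lower, and 1562 higher and 1539 lower of all genes. Signs opposite to those of the report were found as follows, for called genes under composition offsets alone (Aars, Aars2, Farsa, Farsb, Mars2, Rars2 and Vars2), and the cause was not tested. With the GC offset they were Aars2 -0.21, Cars2 -0.20, Fars2 -0.12, Hars2 0.19, Lars2 -0.054, Mars2 1.30, Nars2 0.75, Rars2 0.36, Sars -0.038, Sars2 -0.50, Vars -0.38, Vars2 -0.24 and Wars2 0.017. With the GC and length offset they were Aars -0.15, Aars2 -0.32, Cars2 -0.16, Fars2 -0.21, Hars2 0.15, Lars2 -0.12, Mars2 1.59, Nars2 0.77, Rars2 0.32, Sars -0.017, Sars2 -0.46, Vars -0.55, Vars2 -0.40 and Wars2 0.024. With the GC offset and replicate block they were Aars2 -0.21, Cars2 -0.18, Fars2 -0.031, Hars2 0.19, Lars2 -0.075, Mars2 1.33, Nars2 0.74, Rars2 0.37, Sars -0.035, Sars2 -0.50, Vars -0.38, Vars2 -0.24 and Wars2 0.029. With the GC offset and without control replicate 2 they were Aars2 -0.19, Cars2 -0.018, Farsa -0.0094, Farsb 0.11, Hars2 0.26, Lars2 -0.025, Mars2 1.12, Nars2 0.77, Rars2 0.46, Sars -0.054, Sars2 -0.44, Vars -0.45 and Vars2 -0.28. With the GC, adenine and length offset they were Aars -0.090, Aars2 -0.27, Cars2 -0.16, Fars2 -0.22, Farsb 0.085, Hars2 0.10, Mars2 1.11, Nars2 0.30, Rars2 0.31, Sars2 -0.45, Vars -0.54, Vars2 -0.40 and Wars2 0.11. With library totals alone they were Ears2 0.20, Hars2 0.11, Nars2 0.15, Tars2 0.14 and Yars 0.096, and with upper-quartile factors Ears2 0.12, Hars2 0.055, Nars2 0.11, Tars2 0.055 and Yars 0.033. With limma on log2(FPKM + 1) they were Ears2 0.19, Gars 0.022, Hars2 0.10, Mars1 0.057, Tars2 0.15 and Yars 0.12, without its filter Ears2 0.19, Gars 0.022, Hars2 0.10, Mars1 0.057, Nars2 0.074, Tars2 0.15 and Yars 0.12, and on log2(FPKM + 0.1) Ears2 0.24, Gars 0.022, Hars2 0.13, Mars1 0.060, Tars2 0.17 and Yars 0.12. Over the fits that leave out a library, the sign differed without knockdown replicate 1 for Lars2 (-0.11 to 0.21) and Nars2 (-0.23 to 0.036), without control replicate 1 for Fars2 (-0.093 to 0.50), and without control replicate 2 for Ears2 (-0.19 to 0.12), Mars1 (-0.41 to 0.048) and Tars2 (-0.23 to 0.073), each with its range. The filter of 5 CPM left no value for Mars2 and Pars2. Genes of few counts, such as Mars2 with 39 to 96 counts, have the least precise values, and the corrected values rest on 1 transcript per gene.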

Other observations

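Removing the GC trend called further synthetase genes that had not passed without it. Lower in the knockdown were Cars at -0.80 (edgeR adjusted p = 0.0373), Vars at -0.38 (edgeR adjusted p = 0.0493) and Yars at -0.43 (edgeR adjusted p = 0.0275) in the cytosol. In mitochondria Ears2, whose product charges glutamate onto the tRNAs of both glutamate and glutamine, was lower at -0.64 (edgeR adjusted p = 0.0215), as were Sars2 at -0.50 (edgeR adjusted p = 0.0234) and Tars2 at -0.55 (edgeR adjusted p = 0.0437). Nars2 was higher, at 0.75 (edgeR adjusted p = 0.0196). The uncorrected CPM of Ears2 was 18.2, 18.1 and 17.6 in knockdown replicates 1, 2 and 3, against 15.0, 22.8 and 18.1 in control replicates 1, 2 and 3. These overlap, and the call rests on the offset. In the fit that also took out adenine content and length, chosen after the data were seen, Ears2, Sars2, Tars2, Vars and Yars were called lower again. Nars2, at 0.30 (edgeR adjusted p = 0.209), and Cars, at -0.79 (edgeR adjusted p = 0.0613), were not past the threshold there. With the GC trend removed, the correlation of fold change with GC content across the 37 synthetase genes was -0.37 (Pearson) and -0.32 (Spearman), a description over genes that share libraries.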
